A study of Mus musculus with 18 samples.

Results

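Wild-type neurons were compared with wild-type microglia, using 3 libraries of each fraction, that is 6 of the 18 libraries of the series. The 6 libraries were picked by their labels alone (cell type, genotype WT and biological replicate 1 to 3), so no measured value chose them. The series sequenced RNA of astrocytes, microglia and neurons that were separated in sequence from brains of 10-month-old mice, either wild type (WT) or *Atxn2*-CAG100-KIN (KIN), a knock-in that carries an expanded CAG repeat in *Atxn2*. No treatment was given to either genotype. Microglia were pulled out first by magnetic beads against CD11b and astrocytes second by beads against ACSA-2. The neuronal fraction was what remained unbound after a cocktail against non-neuronal cells and against CD31, so it is defined by what was removed from it. The study describes the RNA yield of this fraction as low. On a C57BL/6 background, each KIN mouse was matched to a WT littermate of its sex. The pairs were not all of one sex, so the WT replicates mix males and females, and the labels do not say which library came from which sex. Each library stands for the fraction of 1 biological replicate. The paper states that all fractions were taken in turn from single brains, so neuronal and microglial libraries share animals. The labels do not say which libraries came from the same brain, and the main test did not pair them.

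Microglia are the resident macrophages of the brain. They survey the tissue with purinergic and fractalkine receptors, depend on the CSF1 receptor for survival, and clear debris and tagged synapses through complement, Fc and TREM2-TYROBP receptors and a large lysosomal compartment. Neurons are told from them by neuron-specific tubulins and microtubule-associated proteins, by synaptic vesicle proteins and by the enzymes and transporters of their transmitter. In the adult mouse brain, new neurons are still made in the subventricular zone and the hippocampus, and the young neuroblasts there express *Dcx*, *Sox11*, *Stmn1* and, in the lineage of the olfactory bulb interneurons, *Dlx1* and *Dlx2*.

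The neuronal libraries held 975225, 1017972 and 761481 counts and the microglial libraries 2830259, 3296398 and 2334633, so every neuronal library was shallower than every microglial one. Most counts fell on a few gene rows. The 10 most abundant genes over the 6 libraries took 83.7% to 85.3% of a neuronal and 76.3% to 84.6% of a microglial library, which left 111883 to 165978 counts for all other genes in neurons and 472632 to 670767 in microglia. *Zfp101* alone took 30.6% to 49.8% and *Creb5* 17.2% to 31.0%. The other 8 were *Ncbp3*, *Mettl26*, *Tmprss11a*, *Tmem245*, *Akap5*, *Or2y16*, *Hook3* and *Ttyh1*. What RNA the counts in these rows come from was not tested. Levels below are CPM, counts scaled to 1000000 per library after TMM (trimmed mean of M values) adjustment of the library sizes, and a count of 3 was worth 2.89 to 4.24 CPM in a neuronal and 0.789 to 1.38 CPM in a microglial library. Neuronal library 2 and microglial library 2 stood apart from their replicates in ways given beside the results they touch.

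**Figure D1:**
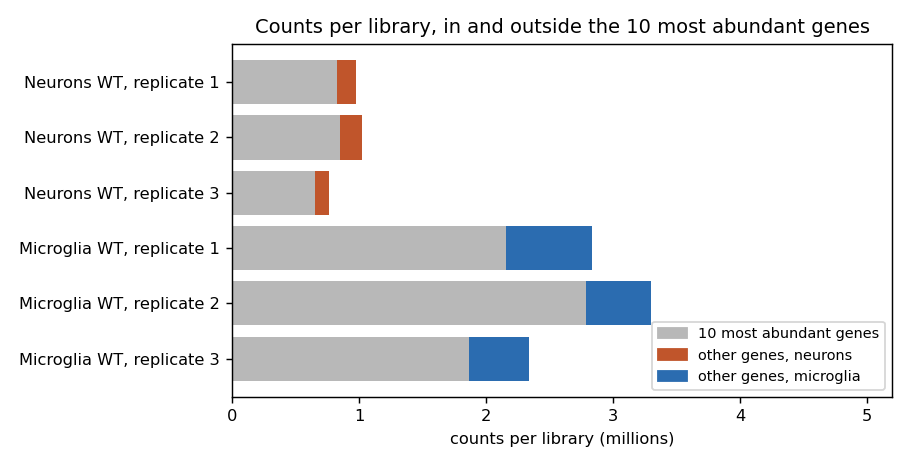
Horizontal bars give the counts of each of the 6 wild-type libraries (x axis, in units of 1000000 counts), split into the 10 most abundant genes (grey) and all other genes (coloured by fraction). The coloured ends of the neuronal bars, 111883 to 165978 counts, are shorter than those of all 3 microglial bars, 472632 to 670767 counts.

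A total of 9617 genes passed the filter of at least 5 reads in at least 2 of the 6 libraries. Of these, edgeR's quasi-likelihood test called 654 genes higher in neurons (6.8%) and 1191 higher in microglia (12.4%), together 19.2%. A call required an adjusted *p* no greater than 0.05 together with a log2 fold change no smaller than 1 in size. Fold changes are neurons minus microglia throughout, so that positive values mean higher in neurons. The median over all genes tested was -0.26. The depth gap entered the filter, because 4126 of the genes passed through microglial reads alone and 78 through neuronal reads alone, and 227 of the genes called higher in microglia had no read in any neuronal library. The libraries of both fractions did not overlap in 590 of the 654 neuronal and 1176 of the 1191 microglial calls, where 11.5% and 24.8% of all genes tested were without overlap in that direction. As these are bulk fractions, fewer cells of a type and less RNA per cell cannot be told apart.

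**Figure D2:**
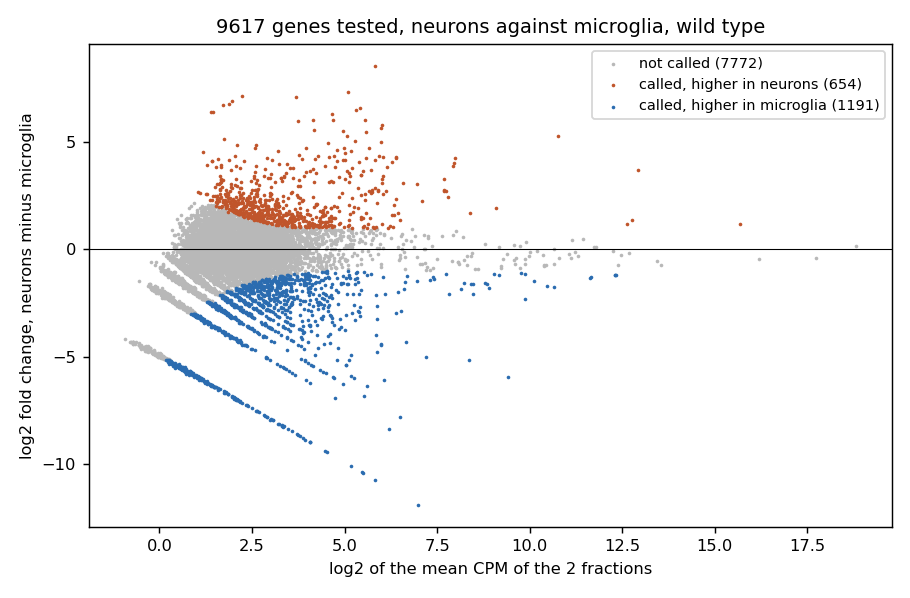
Each point is 1 of the 9617 genes, with the log2 of the mean CPM of both fractions on the x axis and the fitted log2 fold change, neurons minus microglia, on the y axis. The diagonal lines of points at the lower left are genes with 0, 1, or few neuronal reads, for which the fitted value depends on the depth, and 654 genes are called above and 1191 below 0.

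The microglial label held for all its markers. All 17 genes of a microglia identity list passed the filter and all 17 were called higher in microglia, 8 of them with no read in any neuronal library. Their summed level was 792 to 1485 CPM in the microglial and 25.5 to 37.6 CPM in the neuronal libraries, against 20.5 to 31.0 CPM in the WT astrocyte libraries of the series on a common scale. *Tmem119*, a microglial surface protein (chr5:113931781-113938577, GRCm39), had 267, 295 and 173 counts in microglia and none in the 3 neuronal libraries, which put it at least 76.5-fold higher in microglia against a floor of 3 counts over the neuronal group. *Trem2*, the receptor for lipids and debris, had 256, 295 and 174 counts against none and was at least 75.4-fold higher. For both genes, no neuronal library held a read and the lowest microglial library held 173 and 174.

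The receptors that microglia live by followed the same order. *Csf1r*, the receptor of the survival factors CSF1 and IL-34, had 413, 484 and 294 counts in microglia and 0, 1 and 0 in neurons, a ratio of 372 whose exact 95% interval runs from 66.6 up. *P2ry12*, the ADP receptor that steers microglial processes to injury, had 76, 83 and 55 counts against none and was at least 22.3-fold higher. *Cx3cr1*, the receptor for the neuronal chemokine fractalkine, had reads in all neuronal libraries. Its level was 101, 163 and 99.7 CPM in microglia and 6.23, 5.78 and 4.24 CPM in neurons (log2 fold change -4.44, SE 0.45, adjusted *p* = 1e-12, edgeR). *Itgam*, which encodes the CD11b used for the selection, was lowest of the list in size, at 16.0, 18.8 and 11.1 CPM against 3.11, 5.78 and 1.41 CPM (log2 fold change -2.04, SE 0.50, adjusted *p* = 0.00146, edgeR). The list's median log2 fold change was -7.73, and -4.48 when genes without neuronal reads were set to their bound.

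**Figure D3:**
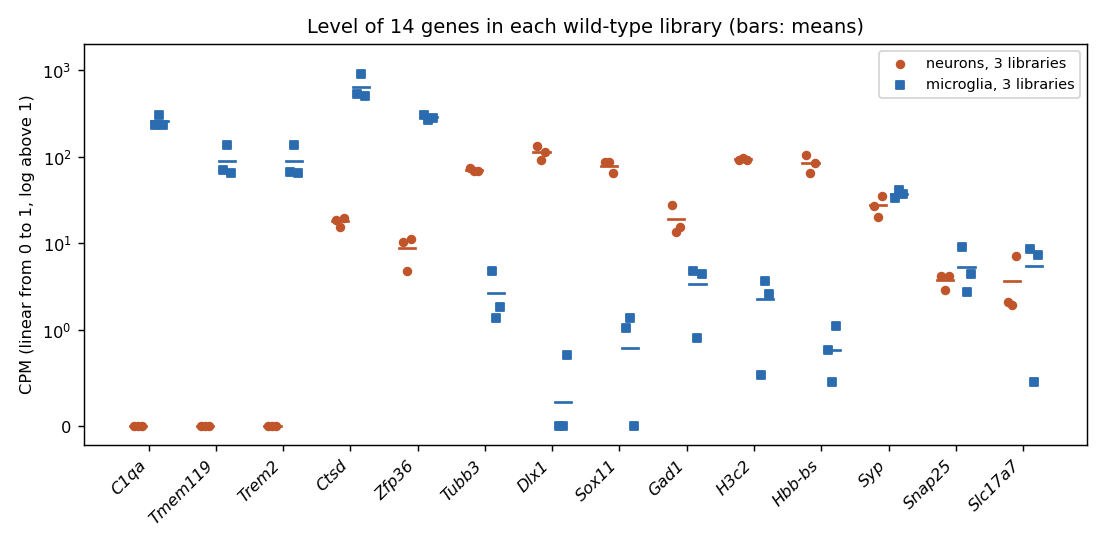
Points give the CPM of 14 genes in each of the 3 neuronal (circles) and 3 microglial (squares) wild-type libraries, on an axis that is linear from 0 to 1 and logarithmic above, with bars at the means. The neuronal and microglial points do not overlap for the genes from *C1qa* to *Hbb-bs*, and they overlap for *Syp*, *Snap25* and *Slc17a7*.

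The transcription factors of the myeloid lineage were higher in microglia in 14 of 15 cases, with *Tal1* not called, and a median log2 fold change of -3.97 (-3.23 with bounds). *Spi1*, which encodes the ETS factor PU.1 that sets up macrophage and microglial enhancers, had 45, 52 and 26 counts in microglia and none in neurons, at least 12.8-fold higher. *Irf8*, its partner, had 130, 81 and 81 counts against none, at least 30.4-fold higher. *Cebpa* had 224, 225 and 138 counts against 3, 0 and 0, a ratio of 61.1 (exact 95% interval 20.8 to 297). *Sall1*, a factor that among brain macrophages is typical of microglia, was at 22.9, 28.9 and 17.4 CPM against 7.26, 1.93 and 4.24 CPM (log2 fold change -2.35, SE 0.47, adjusted *p* = 8.62e-05, edgeR). In each of these genes the lowest microglial library lay above the highest neuronal one.

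The promoters of the called genes were searched for the PU.1-type letters GAGGAAGT on both strands, over 250 bases before to 50 after the start of the gene as RefSeq gives it (GRCm38.p6). Of the 1191 genes higher in microglia, 911 had a promoter in the table and 69 of them (7.574%) held the letters. The share was 2.093% (9 of 430) of the genes higher in neurons, 4.007% (290 of 7237) of all genes tested and 3.689% (997 of 27025) of all promoters. Of the identity, transcription factor, complement and lysosome lists together, 4 of 53 promoters held them, those of *C1qc*, *Ctsc*, *Ctss* and *Inpp5d*. These shares describe the letters in these windows and no test was run on them. The promoters of *C1qc* (minus strand, chr4:136892865-136893164) and *Ctss* (plus strand, chr3:95526536-95526835) are shown, because both genes had no neuronal read at all. Both are written 5′ to 3′ along the gene's strand, and the capitals mark the letters as they read when the match lies on the opposite strand, starting 195 and 2 bases before the start of the gene.
C1qc: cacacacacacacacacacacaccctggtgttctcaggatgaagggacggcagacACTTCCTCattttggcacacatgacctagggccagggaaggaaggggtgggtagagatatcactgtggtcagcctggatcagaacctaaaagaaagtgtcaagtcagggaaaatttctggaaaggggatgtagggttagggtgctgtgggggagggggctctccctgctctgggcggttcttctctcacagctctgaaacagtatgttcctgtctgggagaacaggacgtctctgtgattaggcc
Ctss: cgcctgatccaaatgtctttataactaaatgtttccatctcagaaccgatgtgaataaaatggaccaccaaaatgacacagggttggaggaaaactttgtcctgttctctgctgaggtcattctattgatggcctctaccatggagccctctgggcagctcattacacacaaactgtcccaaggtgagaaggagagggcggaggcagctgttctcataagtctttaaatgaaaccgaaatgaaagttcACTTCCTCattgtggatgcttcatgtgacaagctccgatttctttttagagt

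Complement components were among the widest differences. The 3 chains of C1q, the molecule that tags synapses and debris, had no read in any neuronal library. *C1qa* (chr4:136623223-136626161, GRCm39) had 877, 660 and 627 counts in microglia and was at least 225-fold higher, *C1qb* had 314, 376 and 225 and was at least 95.2-fold higher, and *C1qc* had 211, 239 and 139 and was at least 61.3-fold higher. The signalling chains of the activating receptors went the same way. *Tyrobp* (DAP12), the partner of TREM2, had 113, 215 and 73 counts against 0, 1 and 1 (ratio 62.6, exact 95% interval 17.2 to 519), and *Fcer1g*, the Fc receptor gamma chain, had 59, 86 and 45 counts against none (at least 19.8-fold). In all, 15 of the 18 tested genes of 19 in this list were higher in microglia, and *C5ar1*, *Fcgr2b* and *Cd300a* were not called.

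The lysosome followed with 18 of 20 genes higher in microglia and a median log2 fold change of -3.56, with *Lamp2* and *Npc2* not called. *Ctsd*, the aspartic protease cathepsin D, was at 530, 897 and 504 CPM in microglia and at 18.7, 15.4 and 19.8 CPM in neurons (log2 fold change -5.16, SE 0.41, adjusted *p* = 8.23e-17, edgeR). *Ctss*, the cysteine protease cathepsin S that trims the invariant chain, had 113, 142 and 103 counts against none and was at least 37.3-fold higher. *Psap*, the precursor of the saposins, was expressed in both fractions, at 98.9, 152 and 82.6 CPM against 22.8, 36.6 and 17.0 CPM (log2 fold change -2.10, SE 0.38, adjusted *p* = 1.29e-05, edgeR), and *Lamp1* at 20.8, 29.8 and 21.5 CPM against 2.08, 7.71 and 1.41 CPM. The lysosomal difference was thus wider in the proteases named here than in *Psap* or *Lamp1*, and the libraries did not overlap in any of these genes. *Cst3*, the secreted inhibitor of cysteine proteases and one of the most abundant microglial transcripts, was looked up after its values were seen. It had 3423, 4991 and 2260 counts in microglia and 22, 24 and 13 in neurons (log2 fold change -5.96).

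Antigen presentation separated the fractions less. Of 13 tested genes of 14, 5 were higher in microglia and the median log2 fold change was -1.24. *B2m*, the light chain of class I molecules, was at 47.9, 87.2 and 46.0 CPM against 9.34, 6.74 and 28.3 CPM, and *Cd74*, the invariant chain of class II, at 18.2, 24.8 and 10.0 CPM against 6.23, 0.963 and 0 CPM (log2 fold change -2.74, SE 0.56, adjusted *p* = 0.000138, edgeR). *H2-K1*, a class I heavy chain, was at 61.3, 43.6 and 46.3 CPM against 31.1, 27.9 and 31.1 CPM (log2 fold change -0.75, SE 0.35, adjusted *p* = 0.12, edgeR) and was not called, although its libraries did not overlap. The class II chain *H2-Ab1* was called (log2 fold change -1.81, adjusted *p* = 0.00716, edgeR), and this call was lost without neuronal library 1 (adjusted *p* = 0.13, edgeR) or microglial library 3 (adjusted *p* = 0.0601, edgeR). Without neuronal library 1, 3 genes of the list were called.

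Most cytokine genes had few reads, nearly all of them in microglia. Of 14 tested genes of 15, 11 were higher in microglia. In the list 7 genes had no neuronal read, and such genes can pass the filter only through microglial reads. With an equal CPM filter for both fractions, 7 genes were tested and 6 called. *Il1a* had 39, 28 and 29 counts against none (at least 9.99-fold), *Il1b* 36, 15 and 21 against none (at least 7.49-fold) and *Tnf* 67, 62 and 39 against 1, 4 and 0. The chemokine *Ccl4* had 149, 73 and 83 counts against 2, 0 and 0 (ratio 47.6, exact 95% interval 13.1 to 395). The growth factor *Tgfb1* differed from these, with 3855, 3865 and 3015 counts in neurons and 28481, 13130 and 17158 in microglia, and it was not called (log2 fold change -0.73, SE 0.29, adjusted *p* = 0.0629, edgeR). Among the Toll-like receptors and the NF-kB pathway, 10 of 14 tested genes of 17 were higher in microglia, and 5 without neuronal library 2. In that list 6 genes had no neuronal read. With an equal CPM filter for both fractions, 5 genes were tested and 5 called. *Cd14*, the co-receptor for lipopolysaccharide, had 43, 59 and 31 counts against none (at least 13.8-fold), and *Nfkbia*, the inhibitor that NF-kB itself induces, was at 55.2, 56.0 and 55.6 CPM against 4.15, 2.89 and 7.07 CPM (log2 fold change -3.61, SE 0.45, adjusted *p* = 1.3e-09, edgeR).

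Of the genes known to rise in disease-associated microglia, 8 of 11 tested genes of 14 were higher in microglia and 1 in neurons. *Apoe*, the lipid carrier, was at 109, 238 and 103 CPM in microglia and 12.5, 28.9 and 15.6 CPM in neurons (log2 fold change -2.96, SE 0.41, adjusted *p* = 2.32e-08, edgeR), and the tetraspanin *Cd9* had 49, 50 and 42 counts against 2, 4 and 1 (log2 fold change -2.68, SE 0.53). The gene with the opposite sign was *Lpl*, lipoprotein lipase, at 17.6, 19.3 and 14.1 CPM in neurons and 8.15, 6.89 and 10.0 CPM in microglia (log2 fold change 1.03, adjusted *p* = 0.0476, edgeR). Its call was lost without microglial library 1 (adjusted *p* = 0.114, edgeR), microglial library 2 (0.0594), neuronal library 1 (0.0969) or neuronal library 2 (0.138). *Cst7*, *Spp1* and *Itgax*, all strongly induced in that state, had too few reads to be tested.

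All 20 genes of an immediate-early and tissue dissociation list were higher in microglia, with a median log2 fold change of -2.75. Their summed level was 1235 to 1316 CPM in microglia, 190 to 243 CPM in neurons and, on a scale common to all fractions, 119 to 152 CPM in WT astrocytes, the fraction isolated between them. *Fos* stood at 80.2, 76.7 and 63.4 CPM in microglia and 9.34, 7.71 and 12.7 CPM in neurons, and *Junb* at 105, 123 and 90.4 CPM against 9.34, 14.4 and 8.49 CPM. *Zfp36*, the decay factor that limits cytokine messages, was at 299.9, 269 and 283 CPM against 10.4, 4.82 and 11.3 CPM (log2 fold change -5.03, SE 0.43, adjusted *p* = 2.48e-15, edgeR). *Atf3*, a stress-induced factor, had 104, 64 and 83 counts against none and was at least 26.1-fold higher. The one with the smallest difference among those named was *Egr1*, at 184, 179 and 185 CPM against 55.0, 80.9 and 63.6 CPM (log2 fold change -1.46, SE 0.35, adjusted *p* = 0.00103, edgeR), so that it was well detected in neurons too. Order of isolation and cell type cannot be told apart for this list. Without neuronal library 2, 18 of the 20 were called.

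Of 20 tested glycolytic genes of 21, 8 were higher in microglia and none in neurons, with a median log2 fold change of -0.87. The count moved with single libraries and was 3 without microglial library 1 or 3, 5 without neuronal library 1 or 2 and 4 without neuronal library 3. *Hk2*, the inducible hexokinase, was at 23.9, 29.4 and 26.7 CPM against 2.08, 4.82 and 0 CPM (log2 fold change -3.35, SE 0.52, adjusted *p* = 5.51e-07, edgeR), and *Hk3*, the hexokinase of blood cells, had 21, 9 and 11 counts against none (at least 4.27-fold), while the common *Hk1* was not called. Among genes of actin and myeloid motility, 9 of 15 tested genes of 16 were higher in microglia (6 without neuronal library 3) and 2 in neurons. The thymosins, small proteins that hold actin monomers, went opposite ways. *Tmsb4x* was at 28.1, 54.2 and 18.9 CPM in microglia against 14.5, 10.6 and 5.66 CPM in neurons (log2 fold change -1.66, SE 0.42, adjusted *p* = 0.00195, edgeR), and *Tmsb10* at 97.5, 98.2 and 102 CPM in neurons against 9.47, 20.7 and 11.9 CPM in microglia (log2 fold change 2.84, SE 0.37, adjusted *p* = 4.61e-09, edgeR). *Pfn2*, the neuronal profilin, was also higher in neurons (log2 fold change 2.04, SE 0.49, adjusted *p* = 0.0013, edgeR).

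G protein subunits were read at low counts. *Gna15*, the alpha subunit of blood cells, had 69, 45 and 30 counts in microglia and none in neurons (at least 15.0-fold), and *Gng3*, the gamma subunit of brain, was at 10.4, 13.5 and 4.24 CPM in neurons against 2.10, 0.918 and 2.96 CPM in microglia (log2 fold change 2.21, SE 0.54, adjusted *p* = 0.00157, edgeR). In the list, 4 of 14 tested genes of 16 were higher in microglia (2 without neuronal library 1 or with DESeq2) and 2 in neurons. Over all genes tested, the shares were 12.4% and 6.8%. For *Atxn2*, the gene that carries the expansion in the mutants, the WT level was 3.11, 9.63 and 5.66 CPM in neurons and 10.8, 6.43 and 9.26 CPM in microglia (log2 fold change -0.52, SE 0.48, adjusted *p* = 0.484, edgeR). None of the 10 tested genes of a list of 12, ataxin-2 and its partner proteins, was called, and 1 was called higher in microglia without neuronal library 2.

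The neuronal label held for young neurons and for part of the GABAergic lineage. *Tubb3*, the neuronal class III beta-tubulin (chr8:124138163-124150092, GRCm39), was at 73.7, 67.4 and 67.9 CPM in neurons and 4.74, 1.38 and 1.85 CPM in microglia (log2 fold change 4.57, SE 0.42, adjusted *p* = 3.6e-14, edgeR). *Gad1*, the glutamate decarboxylase that makes GABA (chr2:70383416-70432372), was at 28.0, 13.5 and 15.6 CPM against 4.74, 0.918 and 4.45 CPM (log2 fold change 2.40, SE 0.44, adjusted *p* = 2.01e-05, edgeR). Both were higher in every neuronal than in every microglial library, *Gad1* on only 27, 14 and 11 neuronal counts.

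Genes of neuroblasts and immature neurons were nearly all higher in neurons. Of 16 tested genes of 17, 15 were higher in neurons, with a median log2 fold change of 3.52, and the summed level was 535 to 635 CPM in neurons and 42.2 to 46.0 CPM in microglia. The list shares *Tubb3* and *Stmn2* with the cytoskeletal and *Dlx1* and *Dlx2* with the GABAergic list. *Dlx1*, a homeobox factor of forebrain interneuron precursors (chr2:71358457-71364325), had 128, 94 and 81 counts in neurons and 0, 0 and 2 in microglia (ratio 485, exact 95% interval 133 to 4026). *Sox11*, a transcription factor of newborn neurons, was at 86.1, 85.7 and 65.1 CPM against 1.05, 1.38 and 0 CPM (log2 fold change 6.51, SE 0.50, adjusted *p* = 4.68e-17, edgeR). These 2 factors were close to absent from all microglial libraries.

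Other genes of the list were read in microglia to a varying extent. *Igfbpl1* had 30, 19 and 19 counts against 0, 1 and 0, and the collapsin response mediator *Dpysl3* was at 29.1, 30.8 and 45.3 CPM against 0.263, 0.459 and 0.741 CPM. *Dcx*, the microtubule protein of migrating neuroblasts (chrX:142638838-142716307), was at 30.1, 9.63 and 14.1 CPM against 1.84, 0.918 and 2.22 CPM (log2 fold change 3.35, SE 0.50, adjusted *p* = 1.61e-07, edgeR). *Stmn1*, which destabilises microtubules, was at 41.5, 57.8 and 52.3 CPM against 2.63, 1.84 and 2.59 CPM. *Sox4*, a factor used by many cell types, was detected in both, at 113, 79.9 and 94.8 CPM against 17.9, 27.1 and 18.9 CPM (log2 fold change 2.18, SE 0.35, adjusted *p* = 1.54e-06, edgeR). When any 1 library was left out, 12 to 15 of 14 to 16 tested genes of the list were called. *Prokr2* was not called and *Sp8* had too few reads.

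Of the 20 genes of the GABAergic list, 19 were in the table and 10 could be tested, and 4 of them were higher in neurons, *Gad1*, *Dlx1* and *Dlx2* among them. *Dlx2* had 10, 8 and 5 counts against 2, 0 and 0 (ratio 36.8, exact 95% interval 9.10 to 322). *Meis2*, a factor of striatal and olfactory bulb neurons that stood on the striatal list, was at 35.3, 31.8 and 31.1 CPM against 4.47, 1.38 and 4.45 CPM (log2 fold change 3.17, SE 0.41, adjusted *p* = 3.2e-09, edgeR). The subtype markers *Pvalb*, *Sst*, *Vip*, *Npy* and *Calb2* had too few reads in both fractions to be tested. The neuronal RNA-binding protein *Elavl3* was at 21.8, 33.7 and 18.4 CPM against 6.84, 2.75 and 4.82 CPM (log2 fold change 2.30, SE 0.40, adjusted *p* = 5.72e-06, edgeR), and 4 of 11 tested genes of 14 in that list were higher in neurons (2 without neuronal library 2 or 3).

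Genes of synaptic vesicle release and the nuclear marker *Rbfox3* were not called higher in the neuronal fraction, whereas the postsynaptic genes *Homer1* and *Grin1* and the cytoskeletal genes given further on were. None of the 21 genes of synaptic vesicle release was called in either direction (1 when microglial library 1, microglial library 2 or neuronal library 1 was left out), with a median log2 fold change of -0.51 and a summed level of 144 to 166 CPM in neurons and 131 to 209 CPM in microglia. *Snap25*, a core SNARE protein of the synapse, had 4, 3 and 3 counts in neurons and 34, 6 and 12 in microglia, which is 4.15, 2.89 and 4.24 CPM against 8.94, 2.75 and 4.45 CPM (log2 fold change -0.61, SE 0.59, adjusted *p* = 0.51, edgeR). *Syp*, synaptophysin, had 26, 21 and 25 counts in neurons and 128, 89 and 99 in microglia (log2 fold change after scaling -0.44, SE 0.35, adjusted *p* = 0.413, edgeR). The vesicle calcium sensor *Syt1* had 3, 2 and 0 neuronal counts and the nuclear marker *Rbfox3* (NeuN) 5, 5 and 0. The neuronal libraries of all 4 genes overlapped the microglial ones. For *Snap25*, *Syt1* and *Rbfox3* the neuronal counts were few, and whether depth hid a difference was not tested.

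Several glutamatergic markers had few neuronal counts. *Slc17a7*, the vesicular glutamate transporter of cortex, had 2, 2 and 5 neuronal counts, 2.08, 1.93 and 7.07 CPM against 8.68, 0.459 and 7.41 CPM (log2 fold change -0.80, SE 0.64, adjusted *p* = 0.425, edgeR), and *Slc17a6*, *Neurod2*, *Neurod6* and *Tbr1* could not be tested. *Nrgn*, a postsynaptic calmodulin-binding protein of forebrain neurons, had 0, 1 and 0 counts in neurons and 42, 7 and 29 in microglia (ratio 24.3 higher in microglia, exact 95% interval 4.24 to 974), and *Grin2a*, an NMDA receptor subunit, 0, 1 and 1 against 29, 12 and 16. Of 14 tested genes of 18 voltage-gated channel subunits, 13 were not called. Of the long non-coding RNAs of neurons, *Snhg11* was the only one of 9 in the table and was not called (log2 fold change -0.64, adjusted *p* = 0.287, edgeR), and the other 8 were not analysed here. Microglial library 2, with the smallest TMM factor (0.663), had the lowest level of the vesicle, glutamatergic, GABAergic and channel lists among the microglial libraries. Without it the list medians were -0.61, -0.58, 1.18 and -0.26 in that order, and of the glutamatergic list 4 genes were higher in microglia and 1 in neurons. The channel median, -0.15 with all libraries, had no stable sign, as it was 0.34 without microglial library 1, 0.053 without microglial library 3 and 0.084 without neuronal library 1.

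Several axonal and glial genes were high in neuronal library 2 alone. *Ank3*, the anchor of the axon initial segment, had 4, 209 and 13 counts in the neuronal libraries, *Kif5a*, a kinesin motor of axons, 5, 144 and 9, *Kif1a*, the motor of synaptic vesicle precursors, 22, 155 and 6, and *Nefh*, the heavy neurofilament, 1, 33 and 0. In all 4 genes, library 2 stood far above the others, and those overlapped the microglial libraries. With this library they were called higher in neurons (log2 fold changes 2.53, 3.39, 1.96 and 2.36), and without it the values were -0.30, 0.77, 0.06 and -1.81, none of them called. The call was also lost without this library for *Homer1*, a postsynaptic scaffold, with 16, 44 and 5 counts (log2 fold change 2.15, and 1.28 without it). The same held for the NMDA receptor subunit *Grin1*, with 11, 25 and 4 (1.45, and 0.78 without it). Of the glutamatergic list, 2 of 14 tested genes of 19 were higher in neurons and 2 in microglia, beside 6.8% and 12.4% of all genes tested. Without this library none of the list was higher in neurons. The call of *Grin1* was also lost without microglial library 2 (log2 fold change 1.12, adjusted *p* = 0.0804, edgeR).

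The cytoskeletal list as a whole had 11 of 18 tested genes of 19 higher in neurons with neuronal library 2 and 6 higher and 1 lower without it, and its median fell from 1.77 to 0.52. *Tuba1a* was among those that did not need it, at 46.7, 48.2 and 39.6 CPM in neurons and 4.74, 7.80 and 2.59 CPM in microglia (log2 fold change 3.17, SE 0.39, adjusted *p* = 1.15e-09, edgeR). *Map2*, the dendritic microtubule protein, was at 14.5, 8.67 and 12.7 CPM against 6.31, 2.30 and 1.48 CPM (log2 fold change 1.69, SE 0.48, adjusted *p* = 0.00756, edgeR), a call lost without microglial library 3 (adjusted *p* = 0.0607, edgeR). *Mapt*, which encodes tau, was at 15.6, 19.3 and 7.07 CPM against 5.26, 1.84 and 4.45 CPM (log2 fold change 1.82, SE 0.45, adjusted *p* = 0.00154, edgeR).

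Markers of other cell types moved with that library too. *Mbp*, the myelin basic protein, had 3, 213 and 6 counts in neurons and 34, 27 and 24 in microglia, and *S100b*, an astrocytic and oligodendroglial calcium-binding protein, 2, 53 and 0 against 9, 2 and 5. Without library 2 their log2 fold changes went from 2.88 and 3.35 to -0.83 and -0.56, and *Mobp*, a second myelin protein, went from 2.50 to 1.04 and was no longer called. The summed level of 12 oligodendrocyte markers was 33.2, 269 and 28.3 CPM in the neuronal libraries, 30.4 to 33.4 CPM in the microglial ones and, on the common scale, 473 to 736 CPM in astrocytes. The 12 astrocyte markers summed to 13.5, 69.3 and 17.0 CPM in neurons and 26.6 to 37.4 CPM in microglia, far below the 844 to 1259 CPM of the astrocyte fraction on the common scale, and *Aqp4*, *Fgfr3* and *Gfap* had too few reads in both fractions to be tested. The part that these cells play in the neuronal values was not tested.

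Replication-dependent histone genes formed the list with the most genes higher in neurons. This list was added after the values were seen. These genes make the histones that package newly copied DNA, their messages carry no natural poly(A) tail, and they end in a stem-loop, so that a library reads them when RNA is tailed in the tube, as was done here in all fractions. Of 64 tested genes of 66, 63 were higher in neurons, with a median log2 fold change of 3.52. The summed level was 4994 to 5758 CPM in neurons and 534 to 997 CPM in microglia, against 167 to 197 CPM in astrocytes on the common scale. *H3c2* (chr13:23936250-23936869, GRCm39) was at 91.3, 96.3 and 91.9 CPM in neurons and 0.526, 3.67 and 2.59 CPM in microglia (log2 fold change 5.46, SE 0.45, adjusted *p* = 7.78e-16, edgeR), and *H1f5*, a linker histone, at 32.2, 41.4 and 32.5 CPM against 0.789, 0.459 and 0.741 CPM. *H4c8* was at 195, 238 and 226 CPM against 17.1, 44.1 and 18.2 CPM, with the second microglial library the highest of its fraction. The smallest call was *H1f4* (log2 fold change 1.02, adjusted *p* = 0.0246, edgeR), lost without microglial library 1 (0.0597) or neuronal library 1 (0.0945), and *H2ac21* was not called (log2 fold change 0.24, SE 0.57, adjusted *p* = 0.819, edgeR). The copies within each family are nearly identical in sequence, so the split of reads among them is uncertain, and their counts are not independent.

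The stem-loop was looked for as the letters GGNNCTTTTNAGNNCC on the sense strand of the GENCODE transcripts (GRCm39). It stood in 44 of the 66 histone genes and in 26 of 9427 other tested genes (0.2758%). Among histone genes whose matching transcript has a single exon, the form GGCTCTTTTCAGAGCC was in 25, with log2 fold changes from 1.02 to 5.46, and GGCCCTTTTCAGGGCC in 7, from 1.96 to 4.30. Below are the stem-loops of *H3c2* (plus strand, chr13:23936798-23936823) and *H4c8* (plus strand, chr13:23715623-23715648), shown because the ending sets these messages apart from the poly(A) messages of the other lists, with the stem and loop in capitals.
H3c2: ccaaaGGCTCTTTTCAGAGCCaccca
H4c8: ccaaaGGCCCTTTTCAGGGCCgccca

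The histone promoters were also searched, on both strands, for CCAAT and TATAAA, the letters of the CCAAT and TATA boxes. Of the 57 histone genes with a RefSeq promoter, 49 (85.96%) held CCAAT and 34 (59.65%) TATAAA, against 42.7% and 9.327% of the promoters of all genes tested and 41.06% and 15.67% of all promoters in the table. In all genes higher in neurons, the histone genes among them, the shares were 52.09% and 17.91%. The promoter of *H3c2* (plus strand, chr13:23752095-23752394, GRCm38.p6) is given with its CCAAT and TATAAA letters in capitals, the latter starting 29 bases before the start of the gene.
H3c2 promoter: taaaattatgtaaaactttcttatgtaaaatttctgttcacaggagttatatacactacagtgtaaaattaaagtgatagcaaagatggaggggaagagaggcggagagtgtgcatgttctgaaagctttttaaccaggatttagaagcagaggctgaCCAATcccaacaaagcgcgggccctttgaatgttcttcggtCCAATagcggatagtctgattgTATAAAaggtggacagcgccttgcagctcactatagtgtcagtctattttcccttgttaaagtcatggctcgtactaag

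Genes of the cell cycle, also listed after the values were seen, were higher in neurons in 6 of 12 tested genes of 21. *Ccnd2*, a D-type cyclin of neural progenitors (chr6:127102125-127129156, GRCm39), was at 122, 123 and 127 CPM against 2.89, 1.38 and 2.59 CPM (log2 fold change 5.67, SE 0.44, adjusted *p* = 4.68e-17, edgeR). *Mki67*, the marker of cycling cells, had 11, 22 and 10 counts in neurons and 3, 1 and 3 in microglia (log2 fold change 4.18, SE 0.56, adjusted *p* = 1.03e-08, edgeR), and the replication helicase subunits *Mcm2* and *Mcm5* were called at log2 fold changes of 1.76 and 2.95. *Top2a*, the topoisomerase of mitosis, was at 38.4, 31.8 and 32.5 CPM against 19.5, 28.9 and 22.6 CPM and was not called (log2 fold change 0.54, SE 0.35, adjusted *p* = 0.293, edgeR). *Cdk1*, *Ccnb1* and *Ccna2* had too few reads in both fractions to be tested.

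**Figure D4:**
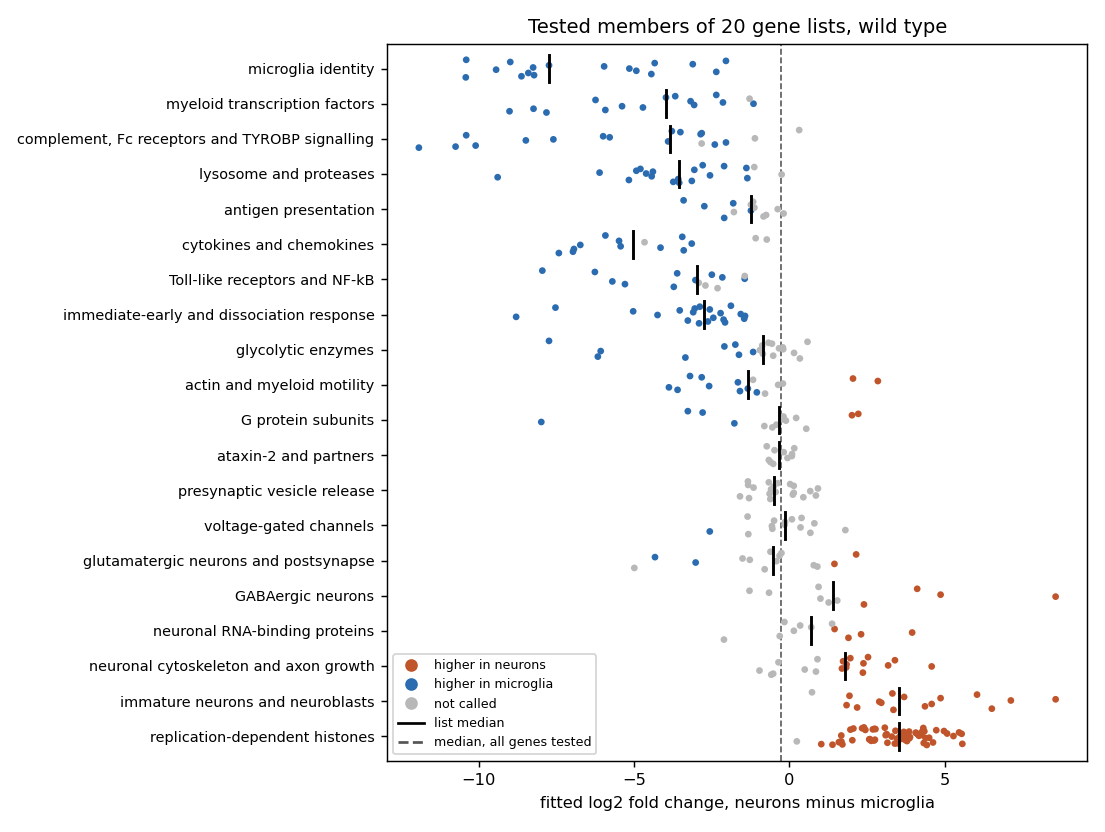
Each point is a tested gene of 1 of 20 lists, at its fitted log2 fold change (neurons minus microglia), coloured by its call, with the list median as a black bar and the median over all genes tested (-0.26) as a dashed line. The microglial lists lie to the left with medians down to -7.73, the vesicle release and channel lists straddle 0, and the neuroblast and histone lists lie to the right with medians of 3.52.

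Genes of blood cells differed in both directions. The 4 adult globin genes were higher in neurons. *Hbb-bs* was at 104, 65.5 and 83.4 CPM against 0.789, 0.459 and 1.11 CPM (log2 fold change 6.60, SE 0.49, adjusted *p* = 7.72e-18, edgeR), *Hba-a1* at 76.8, 51.0 and 153 CPM against 2.37, 0.459 and 0.741 CPM, *Hba-a2* at 95.5, 89.6 and 194 CPM against 2.37, 1.38 and 2.59 CPM, and *Hbb-bt* had 60, 36 and 76 counts against 2, 0 and 1. The pairs of globin genes are near copies, so that reads may be split between them. Lymphocyte genes were also higher in neurons, in 6 of 8 tested genes of a list of 26 that was added after the values were seen. *Ccl5*, a chemokine of T and NK cells, was at 47.7, 31.8 and 72.1 CPM against 0.526, 1.38 and 0.371 CPM (log2 fold change 6.03, SE 0.51, adjusted *p* = 1.75e-15, edgeR), *Cd3d* had 9, 14 and 8 counts against 4, 2 and 4, *Cd3e* 10, 4 and 7 against 2, 0 and 2, and *Nkg7*, a granule protein of cytotoxic cells, 7, 10 and 2 against none (at least 20.3-fold). On the scale common to all fractions, the summed level of the list was 117 to 147 CPM in neurons, 9.92 to 13.4 CPM in microglia and 9.10 to 13.5 CPM in astrocytes. *Trac*, *Cd4* and *Gzmb* could not be tested. Leaving out a neuronal library left 6 lymphocyte genes to test, of which 4 were called without library 1 and 3 without library 2 or 3.

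Genes of neutrophils, which carry CD11b themselves, were higher in microglia in 4 of 7 tested genes of a list of 14. *S100a8* and *S100a9*, the calprotectin subunits, had 114, 88 and 83 and 82, 52 and 38 counts in microglia and none in neurons, at least 29.7-fold and 17.9-fold higher. *Csf3r*, the receptor of the granulocyte growth factor, had 95, 41 and 67 counts against 1, 0 and 2 (ratio 21.1, exact 95% interval 7.13 to 103). The granule genes *Mpo*, *Elane* and *Camp* could not be tested in either fraction. *Ttr*, the thyroxine carrier that the choroid plexus secretes, was at 150, 375 and 156 CPM in neurons and 35.0, 85.8 and 24.5 CPM in microglia (log2 fold change 2.24, SE 0.39, adjusted *p* = 6.38e-06, edgeR, and 1.70 without neuronal library 2). Endothelial markers were low in both fractions, with *Cldn5* at 1, 0 and 0 counts in neurons and 18, 16 and 12 in microglia (ratio 14.4, exact 95% interval 2.45 to 579), and of 8 pericyte markers only 1 could be tested and was not called. The share of these cells in either fraction was not tested.

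Housekeeping groups differed in smaller steps. Of 76 ribosomal protein genes, 13 were higher in neurons and 12 in microglia, beside 6.8% and 12.4% of all genes tested. The median log2 fold change was 0.51, while the summed level was lower in neurons (13176 to 16180 CPM) than in microglia (23530 to 33178 CPM). The count of genes higher in neurons was 5, 28 and 4 without microglial library 1, 2 and 3, 6 with DESeq2, 4 without a filter and 0 in a test against a fold change of 2 (glmTreat). *Rpl5* was at 83.0, 93.4 and 79.2 CPM in neurons and 326, 491 and 279 CPM in microglia (log2 fold change -2.10, SE 0.35, adjusted *p* = 2.3e-06, edgeR), *Rps12* had 742, 706 and 520 counts against 8461, 6766 and 5626 (log2 fold change -1.76, SE 0.31), and *Rpl37a* went the other way, at 68.5, 51.0 and 75.0 CPM against 16.0, 39.9 and 12.6 CPM (log2 fold change 1.52, SE 0.36, adjusted *p* = 0.00119, edgeR). *Rpl5* and *Rps12* carry small nucleolar RNAs in their introns, and whether counts in these rows come from them was not tested. Of 66 tested nuclear genes of the respiratory chain and ATP synthase (84 in the list), 12 were higher in neurons and none in microglia. This count was not stable. It was 6 without microglial library 3, 7 without neuronal library 2, 8 without microglial library 1 or neuronal library 1 or 3 and 15 without microglial library 2, and 1 gene was higher in microglia without neuronal library 1. It was 4 with DESeq2 or without a filter, and 0 with glmTreat. *Cox5b* was among the 12, at 16.6, 10.6 and 14.1 CPM against 4.21, 3.67 and 2.96 CPM (log2 fold change 1.89, SE 0.45, adjusted *p* = 0.00104, edgeR). None of the 13 mitochondrially encoded genes was called, and 1 was higher in neurons without microglial library 2 or neuronal library 1. These 3 lists were chosen after the values were seen.

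Some of the most abundant rows were called too. Among the 10 most abundant genes, *Akap5* was called higher in neurons (log2 fold change 3.69), but it held 4.10% of neuronal library 2 and 0.161% and 0.165% of the others, and without that library the value was 0.63 (adjusted *p* = 0.172, edgeR). *Mettl26* (log2 fold change 1.17) held 6.04%, 9.52% and 6.05% of the neuronal libraries and 0.837%, 5.46% and 0.997% of the microglial ones, so the second libraries were highest in both fractions. *Ttyh1* (1.17) and *Or2y16* (1.35) showed the same order. The calls of *Mettl26* and *Ttyh1* were lost without either of microglial libraries 1 and 3 or neuronal libraries 2 and 3 (log2 fold changes 0.78 to 1.27), and that of *Or2y16* without microglial library 3 (1.13). Without microglial library 2 the values were 3.33 for *Mettl26*, 2.54 for *Ttyh1* and 2.43 for *Or2y16*. *Or8g20*, an olfactory receptor by name, was among the 10 largest neuronal changes with 27, 15 and 26 counts against 2, 1 and 0 (ratio 72.6, exact 95% interval 23.8 to 361), together with *Islr2*, a neuronal leucine-rich repeat protein, at 52.9, 34.7 and 63.6 CPM against 0.789, 0 and 0.741 CPM. *Zic5*, picked after its values were seen, had 2701, 4129 and 2449 counts in neurons and 165, 318 and 194 in microglia (log2 fold change 5.30). The 10 largest microglial changes by the same rule were *C1qa*, *C1qb*, *Tmem119*, *Trem2*, *C1qc*, *Fcrls* (at least 38.6-fold), *Ctss*, *Irf8*, *S100a8* and *Aif1* (at least 29.3-fold). All 10 were without a neuronal read, so their order rests on fitted values that depend on the depth, and only bounds are known.

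The same contrast was available in the 6 KIN libraries of both fractions, which the WT comparison did not use. There 10365 genes were tested, and 1284 were called higher in neurons (12.4%) and 1712 in microglia (16.5%), together 28.9%. The KIN neuronal libraries were deeper, at 1.47e+06 to 2.02e+06 counts against 761481 to 1017972 in WT. Counts of calls in the genotypes are thus not at equal depth. Of the 654 WT neuronal calls, 469 were called the same way in KIN (71.7% of the WT and 36.5% of the KIN calls) and 1 the opposite way. Of the 1191 WT microglial calls, 944 were called the same way (79.3% and 55.1%) and none the opposite way. All 17 microglia identity genes were again higher in microglia, 16 of 17 tested neuroblast genes higher in neurons (15 of 16 in WT), and 63 of 64 tested histone genes higher in neurons. Other lists had different counts. Of the 76 ribosomal protein genes none was higher in neurons in KIN and 11 in microglia (13 and 12 in WT), with a median of -0.071 against 0.51. Of the 13 mitochondrially encoded genes 5 were higher in microglia (none in WT), with a median of -0.92 against 0.087, and of the antigen presentation genes 13 of 14 (5 of 13 in WT). *Tubb3* had a log2 fold change of 7.84 in KIN and 4.57 in WT, *Gad1* 3.98 and 2.40, and *Dlx1* 9.64 and 8.56. The genes that rested on neuronal library 2 were not called in KIN in the case of *Ank3* (-0.32), *Kif1a* (0.87), *Homer1* (0.68) and *Mbp* (0.40), whereas *Kif5a* (2.79) and *Grin1* (1.24) were. *Lpl*, called higher in WT neurons, had a log2 fold change of -0.75 in KIN. The list medians for vesicle release, channels and glutamatergic genes were 0.58, 1.39 and 0.79 in KIN and -0.51, -0.15 and -0.52 in WT. In WT the channel median ranged from -0.30 to 0.34 when 1 library was left out, so that its side of 0 rests on single libraries. The lists hold different tested genes in both genotypes, and their difference was not tested as a list.

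**Figure D5:**
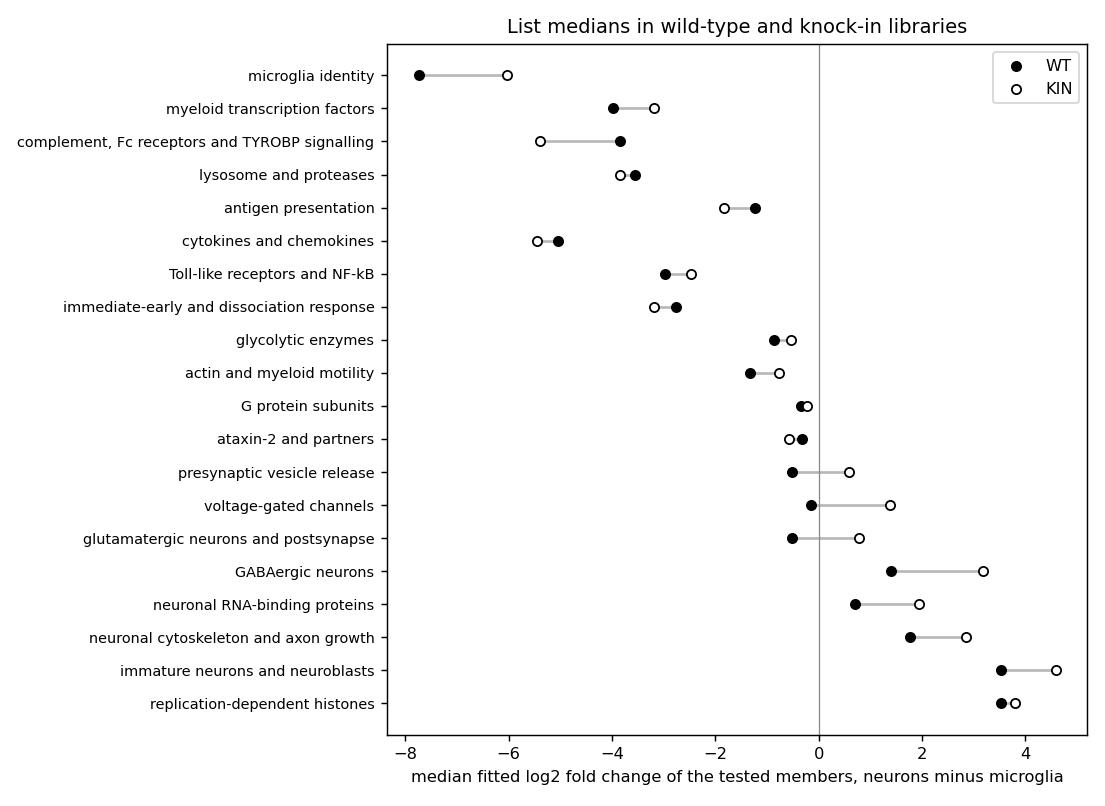
For 20 gene lists, filled circles give the median fitted log2 fold change (neurons minus microglia) of the tested members in WT and open circles that in KIN libraries. The microglial lists lie left of 0 and the neuroblast and histone lists right of 0 in both genotypes, and the vesicle release and glutamatergic medians lie on opposite sides of 0. The channel median does too with all libraries, but in WT it was between -0.30 and 0.34 when 1 library was left out.

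Whether the difference between neurons and microglia itself depended on the genotype was tested as an interaction term over 12 libraries. Of 11575 genes, edgeR called 9 (0.0778%), *Nnat*, *Kcnab2*, *Septin5* and *Etnk1* with a larger value of neurons minus microglia in KIN and *Apoe*, *Fth1*, *Car9*, *Mfsd12* and *Parp12* with a smaller one. No member of the microglia identity, neuroblast, vesicle release, channel or histone lists was among them. *Kcnab2*, which encodes a beta subunit of potassium channels, was not on the channel list. *Apoe* had 415, 519 and 277 counts in WT microglia, 4346, 3839 and 3268 in KIN microglia, 12, 30 and 11 in WT neurons and 40, 21 and 46 in KIN neurons. Its level was thus higher in every KIN than in every WT microglial library, while the neuronal libraries of both genotypes overlapped. *Nnat*, a membrane protein of developing neurons, had 74, 60 and 35 counts in WT and 150, 108 and 152 in KIN neurons. Scaled over the 12 libraries, these were 74.5, 55.8 and 46.2 CPM in WT and 87.4, 77.5 and 87.0 CPM in KIN. In microglia it had 12, 4 and 13 counts in WT and 0, 0 and 2 in KIN.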

How the data were processed

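RNA of sorted brain fractions was sequenced as 3′ tags with molecular identifiers (panRNA-seq, with rRNA depletion and poly(A) tailing). The whole-number counts per transcript were deposited by the authors, who per the labels trimmed reads with cutadapt 4.6, checked them with FastQC 0.11.9 and MultiQC 1.23, aligned them to mm39 with Bowtie2 2.4.4, collapsed identifiers and counted without strand by HTSeq 2.0.2. 36 per-sample columns of normalised values and the authors' columns of fold changes and *p*-values were not used. The 137 of 116873 rows without a symbol were kept under their own row identifiers.

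Counts were summed by symbol (35823 symbols). Genes with at least 5 reads in at least 2 of the 6 libraries were scaled by TMM and tested with edgeR 4.0.16 (R 4.3.3, limma 3.58.1) quasi-likelihood, without covariates, with Benjamini-Hochberg adjustment over all genes tested. Calls required an adjusted *p* no greater than 0.05 and a log2 fold change no smaller than 1 in size. KIN libraries and the genotype interaction were fitted alike. The procedure was tested on simulated data. Where a group had no read, a fold is a bound against 3 counts over that group, and with 1 to 3 reads a ratio with an exact 95% interval. Intervals cover counting error only. The labels call the replicates biological, but *p*-values measure the spread between these samples.

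Named genes were the marker genes of the fractions, the 10 largest called changes each way with at least 10 reads in every library of the higher fraction, members of the gene lists, the 10 most abundant genes and the genes of the interaction. Members and lists were chosen with earlier results of these data known. The histone, cell cycle, lymphocyte, neutrophil, ribosomal, mitochondrial and respiratory lists were added after the values were seen. Alternatives were DESeq2 1.42.0, other scalings and filters, transcript rows, a replicate block and leaving out each library. Results for some list members are not reported here.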

Additional observations from a re-analysis of the deposited data

Results flagged for a closer look

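For 9 genes the difference between neurons and microglia itself differed between the genotypes by an interaction test (edgeR quasi-likelihood, adjusted over 11575 genes, 3 libraries in each of 4 groups). Values are the log2 fold change of neurons over microglia in KIN minus that in WT. *Apoe* had -2.86 (adjusted *p* = 0.000308, edgeR), and was called in all 15 alternatives run for it. *Nnat* had 4.11 (adjusted *p* = 0.00664, edgeR) and was called in 12 of 15. *Fth1* had -2.82 (adjusted *p* = 0.0100, edgeR), with 7, 125 and 17 counts in WT neurons, where library 2 stood apart. It was called in 10 of 15 alternatives, with values from -3.30 to -1.005, the latter without neuronal WT library 2. *Kcnab2* had 5.10 (adjusted *p* = 0.0183, edgeR), with at most 16 counts in any library, and was called in 9 of 14.

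The remaining 5 were called in fewer than 8 of their 14 or 15 alternatives. *Car9* had -2.25 (adjusted *p* = 0.0264, edgeR), *Septin5* 4.27 and *Mfsd12* -3.59 (both adjusted *p* = 0.0316, edgeR), *Parp12* -3.87 (adjusted *p* = 0.0316, edgeR) and *Etnk1* 6.84 (adjusted *p* = 0.0420, edgeR). *Parp12* had 3, 30 and 2 counts in WT neurons, again with library 2 highest. *Etnk1* had no read in WT neurons and 16, 7 and 8 in KIN neurons, so its fitted value depends on the depth. It is neither a measured fold nor a bound. Without adjustment, 955 of the 11575 genes had a *p* under 0.05.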

How the results depend on the processing

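The counts of 654 genes higher in neurons and 1191 higher in microglia became 394 and 727 with DESeq2 in place of edgeR, 275 and 607 in a test against a fold change of 2 (glmTreat), and 728 in microglia when a mean of 10 or more counts was required. Leaving out each library gave 484 to 621 and 883 to 1016. Deviations of same-numbered libraries from their fraction mean were nearly uncorrelated (0.004, -0.001 and -0.017). With 3 libraries per fraction this cannot show whether the numbers pair libraries of the same brain. A replicate block gave 514 and 992. It changed the calls of 5 of the 124 named genes called, *Lpl*, *Ank3*, *Kif1a*, *Nefh* and *Clic6*. Other scalings, no filter, transcript rows, an equal CPM filter and a fit over all 18 libraries stayed within 1.5 times of both counts.

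Several counts within lists were smaller under other tests. With DESeq2 the genes higher in neurons went from 11 to 5 in the cytoskeletal list, and those higher in microglia from 8 to 4 in the glycolytic list. With glmTreat the counts higher in microglia went from 5 to 3 for antigen presentation, from 10 to 6 for Toll-like receptors and from 12 to 4 for ribosomal proteins. A replicate block gave 6 respiratory chain genes higher in neurons in place of 12, and 5 glycolytic genes higher in microglia in place of 8.

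The interaction counts, 4 larger and 5 smaller in KIN, became 0 and 1 with DESeq2, 1 and 1 with a mean of 10 or more counts, and 5 and 5 with a replicate block. Leaving out each library, an alternative chosen after seeing the data, gave 0 to 25 and 1 to 19, with 25 and 19 without microglial WT library 2 and 0 and 1 without microglial WT library 3. The KIN counts stayed at 1044 to 1174 and 1407 to 1561 when libraries were left out. The share of counts in the most abundant genes averaged 79.8% of neuronal libraries for 5 genes and 87.9% for 20, and 85.7% of microglial libraries for 20.

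Of the 124 named genes called, 95 were called under every alternative that gave a value. Signs turned without neuronal library 2 for *Ank3* (range over left-out libraries -0.30 to 3.12), *Nefh* (-1.81 to 2.95), *Mbp* (-0.83 to 3.48), *S100b* (-0.56 to 3.93), the oligodendrocyte list median (-0.066 to 1.39) and the mitochondrially encoded median (-0.22 to 0.41, and -0.20 when no filter was applied). The voltage-gated channel median turned from -0.15 to 0.34, 0.053 and 0.084 without microglial library 1, microglial library 3 and neuronal library 1, and to 0.050 with a mean of 10 or more counts. The medians of the border macrophage, ependymal and choroid plexus, pericyte and striatal projection neuron lists also changed sign under at least 1 alternative. Among genes not called, *Snap25* ranged from -0.87 to 0.083, with 0.083 without microglial library 1, *Rbfox3* from -0.65 to 0.22, with 0.22 without microglial library 1 and 0.14 without neuronal library 3, and *H2ac21* from -0.20, without neuronal library 1, to 0.57, with -0.056 when no filter was applied. The cause was not tested in any of these cases.

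Depth limits the neuronal side. With 111883 to 165978 counts outside the 10 most abundant genes, 3 counts are worth up to 4.24 CPM in a neuronal library. Genes at a few neuronal counts, some mature neuron markers and receptor genes among them, could not be compared firmly. Whether depth accounts for the mature neuron markers that were not called was not tested. Folds against neurons without a read are bounds. The fractions differ in depth, in order of isolation and in how they were selected, and these cannot be told apart from cell type. Counts per symbol may hold reads of other RNAs in the same gene, since strand was not used in counting.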
